A study of Mus musculus with 20 samples.

Results

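Integrins are cell-surface receptors made of one alpha and one beta chain, and they bind the extracellular matrix outside the cell and the actin cytoskeleton inside it. The beta1 chain pairs with many alpha chains, among them the collagen receptor chains alpha1 and alpha2, the laminin receptor chains alpha3 and alpha6, and the fibronectin receptor chain alpha5. The alpha v chain also pairs with beta3 and beta5, which bind vitronectin and related ligands, and alpha6 also pairs with beta4, whose long cytoplasmic tail binds intermediate filament linkers. The 10 integrin chains described here were taken as a named list of genes known in endothelium, Itga1, Itga2, Itga3, Itga5, Itga6, Itgav, Itgb1, Itgb3, Itgb4 and Itgb5, out of 46983 gene IDs. Each was found by its Ensembl ID, and all 10 passed the filter on low counts that left 14875 genes.

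The chains were read in bulk RNA sequencing of CD31-positive cells, 20 libraries in all, sorted from tumours of the mouse mammary carcinoma line E0771. In every group the same number of E0771 cells had been placed in the mammary fat pad of a C57BL/6J host, and tumours were collected at 500 mm3. The hosts classed by the submitters as deficient in CD4 T cells were CD4KO (n = 3), TCRKO (n = 3) and Tie2Cre_H2Abf (n = 4), which joins the Tie2Cre transgene with a floxed H2-Ab allele. The hosts classed as competent were CD8KO (n = 3), Tie2Cre (n = 3) and WT (n = 4). The Tie2 promoter is active in endothelial and in blood-forming cells, so Cre is not limited to endothelium. Whether the libraries are from different animals is not given, so the p-values speak only to the spread among these samples.

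Library totals lay between 1543880 and 11478932 counts (median 7531950). Protein-coding genes took between 12.8% and 81.0% of them, so the integrin counts rest on a small part of most libraries. A pair of libraries stood apart by the share of the gene model Gm10800, which was 33.5% in WT_9771 and 14.3% in Tie2Cre_9501, against at most 1.78% in the other 18 libraries. They were also the 2 shallowest, and values without them are given beside the results that moved most when they were left out. Endothelial markers were present in every library, with Cdh5 at 673 to 1909 CPM (counts scaled to a common library size with TMM factors) and Pecam1, the sort marker, at 435 to 1377 CPM. Platelet markers summed to at most 28.7 CPM, T cell markers to at most 69.8 CPM, and macrophage markers to between 77.2 and 608 CPM. H2-Ab1 stood at 0.712 to 6.37 CPM in Tie2Cre_H2Abf, against 25.3 to 96.2 CPM in Tie2Cre. In the 3 libraries labelled CD8KO, Cd8a was read at 39.0 to 69.8 CPM, against 0 to 2.46 CPM in WT, so RNA of the targeted gene was higher where the label names its loss. Directions drawn from the libraries labelled CD8KO carry that limit. Cd4 stood at 4.22 to 15.7 CPM in CD4KO, against 0.379 to 15.6 CPM in WT, and Trac, a T cell receptor chain, at 0.616 to 1.07 CPM in TCRKO, against 0 to 0.821 CPM in WT, so neither told those labels apart.

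Promoter sequence is shown for 3 chains that mark the ends of the range described below. Itga5 had the highest median level in TPM. In CPM, Itgb1 had one of the smallest spreads among genes averaging 10 CPM or more. Itga2 had the widest spread in CPM among the 9 chains at that level. Each line gives the 250 bases before the RefSeq start (build GRCm38.p6), 5′ to 3′ on the gene's strand. Capitals mark matches to GGGCGG, the GC box bound by Sp1-type factors, on either strand.
Itga5, chr15:103366792-103367041, minus strand: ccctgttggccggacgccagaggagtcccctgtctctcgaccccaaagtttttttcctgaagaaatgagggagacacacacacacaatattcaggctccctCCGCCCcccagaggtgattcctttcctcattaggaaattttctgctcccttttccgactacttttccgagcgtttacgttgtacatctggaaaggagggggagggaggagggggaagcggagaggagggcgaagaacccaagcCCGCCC
Itgb1, chr8:128685404-128685653, plus strand: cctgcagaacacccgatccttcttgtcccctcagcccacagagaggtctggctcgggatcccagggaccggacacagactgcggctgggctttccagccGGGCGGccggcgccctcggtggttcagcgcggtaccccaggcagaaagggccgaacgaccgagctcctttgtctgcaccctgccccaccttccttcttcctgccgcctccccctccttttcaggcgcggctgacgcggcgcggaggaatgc
Itga2, chr13:114932101-114932350, minus strand: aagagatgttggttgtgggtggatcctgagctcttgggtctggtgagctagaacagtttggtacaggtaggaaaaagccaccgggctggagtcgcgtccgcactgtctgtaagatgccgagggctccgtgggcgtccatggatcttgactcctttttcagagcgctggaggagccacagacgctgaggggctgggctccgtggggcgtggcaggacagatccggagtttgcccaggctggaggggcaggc

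The Itga5 window held 2 GC boxes and the Itgb1 window 1, and the Itga2 window held no match to these letters. Of 32851 RefSeq promoter windows of that length, 32.7% held a match. The windows held 11 CpG pairs for Itga5, 21 for Itgb1 and 12 for Itga2, against a median of 6 over all windows. The same windows were searched on both strands for CCGGAA, the ETS core present in 12% of all windows, for TGANTCA, the AP-1 motif present in 6.75%, and for TATAAA, the TATA box present in 12.4%. None of these 3 motifs was found in the 3 windows printed. Windows were held for 7 of the 10 chains. Itga6, Itgb3 and Itgb4 are named only.

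On GRCm38, Itgb3 lies at chr11:104608000-104670476 and Itgb4 at chr11:115974709-116008412, both on the plus strand, and Itga3 lies at chr11:95044474-95076801 on the minus strand. Itga1 (chr13:114953096-115101964) and Itga2 (chr13:114833081-114932100) are neighbours on the minus strand of chromosome 13. Counts are summed over each gene's transcripts, so exons and splice forms are not told apart.

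Per length of transcript, the alpha5 chain of the fibronectin receptor was the most abundant chain. Levels between genes are given in TPM, which is scaled for length and depth. Itga5 ran from 11.3 to 284 TPM with a median of 60.5 TPM, and stood above Itga6, the next chain, in 18 of 20 libraries. Itga6 (median 33.1 TPM), Itga3 (30.8 TPM) and Itgb3 (30.7 TPM) followed, and this order was not held between libraries: Itga6 exceeded Itga3 in 11 of 20 and Itga3 exceeded Itgb3 in 10 of 20. Itgb3 exceeded Itgb4 (median 12.4 TPM) in 17 of 20 libraries. Itgb4 and Itgb1 (11.4 TPM) did not differ beyond their spread, with Itgb4 higher in 11 of 20. Itgb1 in turn exceeded Itga1 (7.48 TPM) in 18 of 20 libraries. Itgav had a median of 5 TPM, Itga2 of 3.65 TPM and Itgb5 of 1.09 TPM, and each exceeded the next in 13 and 12 of 20. The highest TPM of Itga5, Itga6, Itga3, Itgb4, Itgb1, Itgav and Itga2 were all in CD8KO_9752. In that library protein-coding genes took 81.0% of counts. Its Itga5 level was 228 CPM, against 204 and 301 CPM in the other CD8KO libraries.

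**Figure D1:**
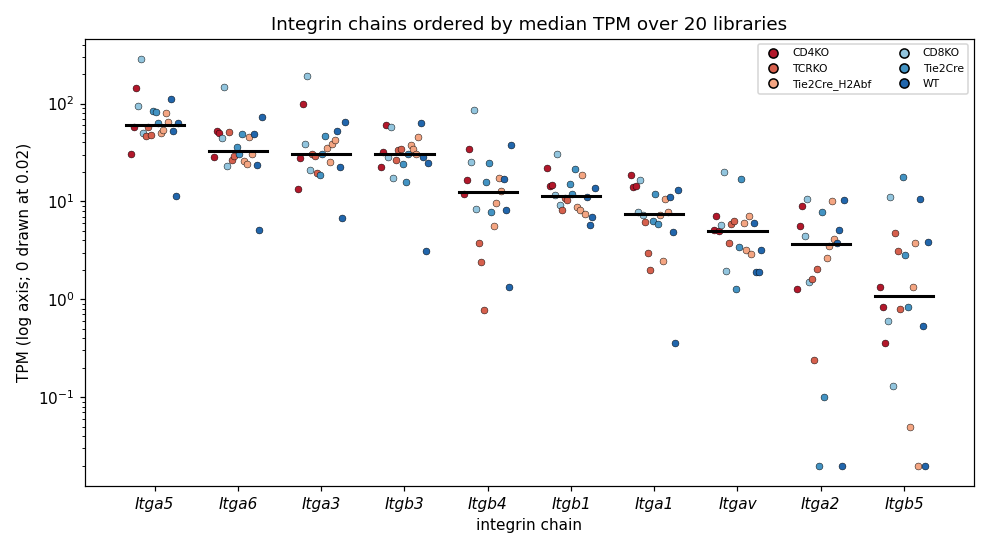
TPM on a log axis for each of the 10 integrin chains, ordered from left to right by the median over 20 libraries. Points are libraries coloured by background, black bars are medians, and values of 0 are drawn at 0.02; Itga5 has the highest median (60.5 TPM) and Itgb5 the lowest (1.09 TPM).

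The deposited effective lengths, by which TPM is divided, differed between libraries for some chains. They ran from 189 to 2903 bases for Itgb5, from 2127 to 6513 for Itgav and from 1444 to 3378 for Itga6, from 1878 to 3574 for Itgb1, from 3249 to 5633 for Itgb4 and from 2937 to 4441 for Itga3, but only from 3988 to 4192 for Itga5. The places of the chains named before Itga5 rest on estimates that vary between libraries.

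The 6 alpha chains summed to a median of 149 TPM and the 4 beta chains to 59.2 TPM, and their ratio within a library ran from 1.69 to 3.63. Itga5 held 27.9% to 57.4% of the alpha sum. Among beta chains, Itgb3 held a median of 50.3%, Itgb4 20.1% and Itgb1 19.7%. The summed TPM of Itga1, Itga2, Itga3, Itga5 and Itga6, all of which can pair with beta1, was 3.41 to 21.5 times that of Itgb1, with a median of 13.6. RNA levels do not give the amount of either protein.

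In CPM, Itgb1, the common partner chain, hardly varied between libraries. It stood between 22.4 and 41.3 CPM in the 10 CD4-deficient libraries, with a mean of 33.5 ± 6.47 CPM (SD), and between 21.1 and 44.5 CPM in the 10 CD4-competent libraries, with a mean of 30.8 ± 6.06 CPM. Its SD over 20 libraries was 0.28 on the log2 CPM scale, and of 4201 genes averaging 10 CPM or more, 5 had a smaller one (0.119%). Among 942 genes of similar level, 1 had a smaller SD. WT_9771, which stood apart for other chains, held 31.2 CPM of Itgb1, inside the range of the other WT libraries (27.3 to 33.3 CPM). Without WT_9771 and Tie2Cre_9501, 0.786% of genes had a smaller SD. In TPM, which takes no TMM factor, Itgb1 varied more, from 5.74 to 30.5 TPM. Its share of the beta chain TPM ran from 10.7% to 60.9%, the highest in WT_9771.

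The other chains had larger SDs. The median gene had an SD of 0.85. Itga5 (0.52), Itga6 (0.60), Itga3 (0.73), Itgb3 (0.76) and Itgav (0.77) lay below it, and Itga1 (0.98) above it. Itga2, the alpha chain of the collagen receptor alpha2 beta1, had an SD of 2.18, and 99.2% of genes had a smaller one. Without WT_9771 and Tie2Cre_9501 its SD was 1.58, above 96.7% of genes. Itga2 was at 0 counts in Tie2Cre_9501 and WT_9771. There 3 counts, an approximate upper limit for a count of 0 under sampling noise alone, are 1.13 and 2.46 CPM. Itga2 was also low in 2 deeper libraries, at 0.252 CPM in Tie2Cre_9504 and 0.950 CPM in TCRKO_9766. It reached 29.2 CPM in Tie2Cre_H2Abf_9583 and 28.9 CPM in WT_9749. Itgb4 had an SD of 1.26, above 82.4% of genes. Against genes of similar level only, the places differed. There 32.5% of genes had a smaller SD than Itga5, 44.7% than Itga6, 29.1% than Itgav, 71.5% than Itga3 and 77.3% than Itgb3. The share was 77.9% for Itga1, 97.4% for Itga2 and 96.2% for Itgb4.

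**Figure D2:**
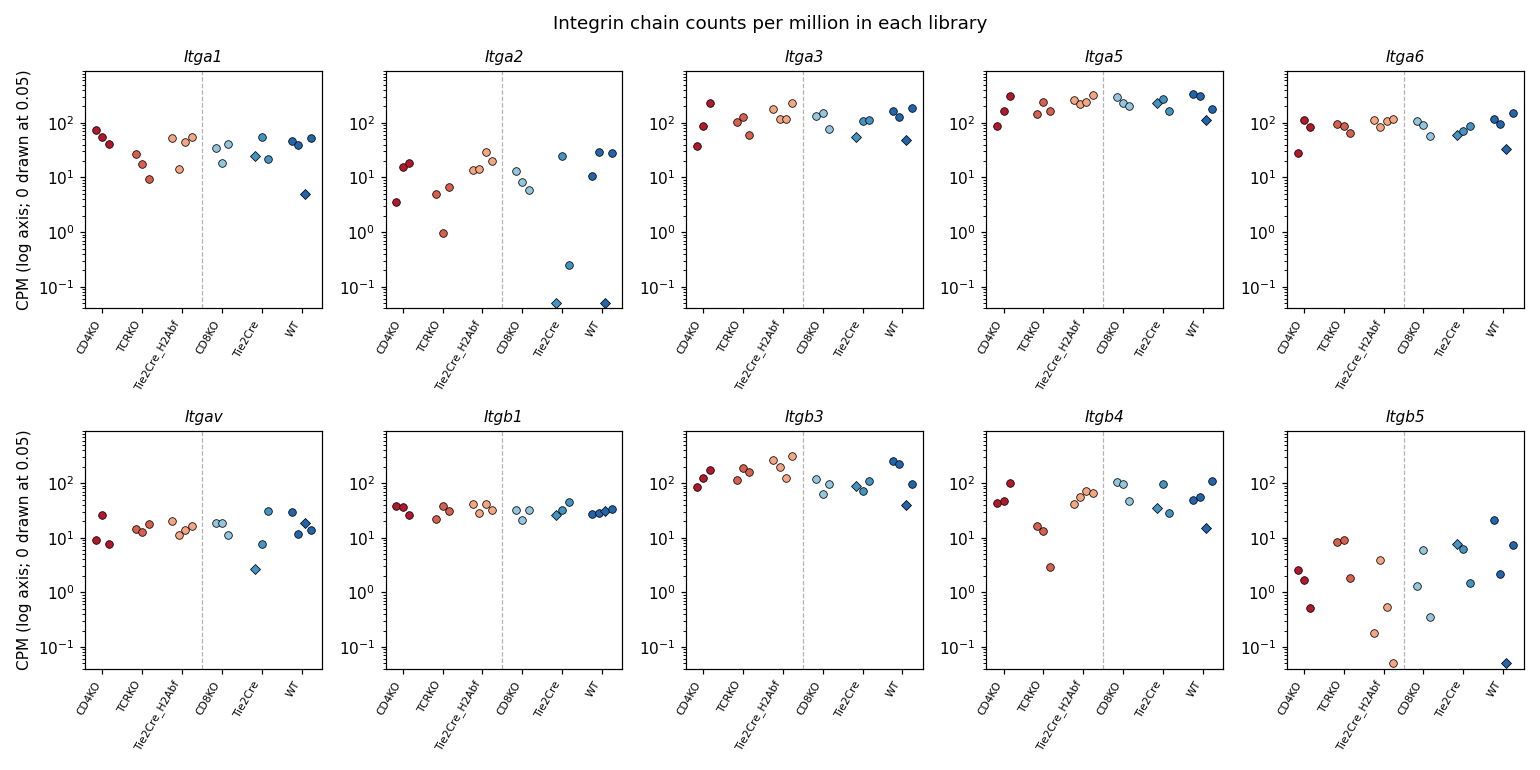
CPM on a log axis for each integrin chain in each library, with the 3 CD4-deficient backgrounds left of the dashed line and the 3 CD4-competent backgrounds right of it. Points are single libraries, diamonds are WT_9771 and Tie2Cre_9501, and values of 0 are drawn at 0.05; Itgb1 stays between 21.1 and 44.5 CPM, and Itgb4 is lowest in TCRKO.

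Mean levels by background are given in CPM with their SD (n = 3 each for CD4KO, TCRKO, CD8KO and Tie2Cre, n = 4 each for Tie2Cre_H2Abf and WT). The fibronectin receptor chain came first. In CPM, Itga5 averaged 186 ± 111 in CD4KO, 185 ± 50.04 in TCRKO, 266 ± 44.5 in Tie2Cre_H2Abf, 244 ± 50.6 in CD8KO, 223 ± 52.4 in Tie2Cre and 234 ± 105 in WT. Its group means lay within 1 SD of the WT mean in all 5 other backgrounds. The laminin receptor alpha chains were lower in CPM and also overlapped between backgrounds. In CPM, Itga3 averaged 117 ± 98.0 in CD4KO, 98.0 ± 34.4 in TCRKO, 161 ± 54.3 in Tie2Cre_H2Abf, 121 ± 40.1 in CD8KO, 92.1 ± 31.98 in Tie2Cre and 129.8 ± 59.8 in WT. In CPM, Itga6 averaged 74.7 ± 42.6 in CD4KO, 83.2 ± 16.9 in TCRKO, 106 ± 14.6 in Tie2Cre_H2Abf, 86.0 ± 24.6 in CD8KO, 73.1 ± 14.97 in Tie2Cre and 99.7 ± 49.4 in WT. In CD4KO the SD of Itga3 was nearly as large as its mean, since CD4KO_9768 held 37.1 CPM and CD4KO_9770 held 226 CPM. The alpha v chain had its widest spread in Tie2Cre. In CPM, Itgav averaged 14.1 ± 9.99 in CD4KO, 14.9 ± 2.60 in TCRKO, 15.4 ± 3.86 in Tie2Cre_H2Abf, 16.0 ± 4.14 in CD8KO, 13.6 ± 14.8 in Tie2Cre and 18.5 ± 7.93 in WT. The low and high Tie2Cre values of Itgav were 2.65 CPM, in Tie2Cre_9501, and 30.4 CPM.

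The first comparison asked whether integrin RNA differed between hosts deficient and competent in CD4 T cells. Each side joins libraries of different backgrounds, which were taken as replicates, so its p-values do not describe any single background. No chain passed edgeR's quasi-likelihood test at an adjusted p under 0.05 (0 of 10), and neither did any gene of 14875 (0%). At an unadjusted p under 0.05 the count was 0 of 10 chains, against 7.27% of all genes, and DESeq2 called 0 chains and 4 genes (0.0269%). The median change of the 10 chains was 0.05 on the log2 scale, against -0.11 over all genes tested. In these bulk samples, fewer cells of a type and less RNA per cell cannot be told apart.

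The smallest p among the chains was that of Itgb3, the beta chain of the vitronectin receptor. Itgb3 ran from 85.4 to 308 CPM in CD4-deficient libraries (mean 174 ± 70.0 CPM, SD, n = 10), against 40.2 to 255 CPM in CD4-competent libraries (mean 116 ± 69.5 CPM, SD, n = 10). Of the deficient libraries, 2 stood above all competent ones, both Tie2Cre_H2Abf, and the groups overlapped otherwise. The log2 fold change was 0.58 ± 0.29 (SE), with an edgeR adjusted p of 0.707. The library numbers fall in 2 ranges, 97xx for CD4KO, TCRKO, CD8KO and WT and 95xx for Tie2Cre_H2Abf and Tie2Cre. Within the 97xx libraries the change was 0.14 ± 0.37, with an edgeR adjusted p of 0.999. Within the 95xx libraries it was 1.28 ± 0.35, with an edgeR adjusted p of 0.359. Itgb5, the other beta partner of alpha v considered here, had a change of -0.91 ± 0.78 at low levels of 0 to 8.91 CPM in deficient and 0 to 21.2 CPM in competent libraries. The remaining 8 chains had changes between -0.48 (Itgb4) and 0.21 (Itga1), each with an edgeR adjusted p of at least 0.875.

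**Figure D3:**
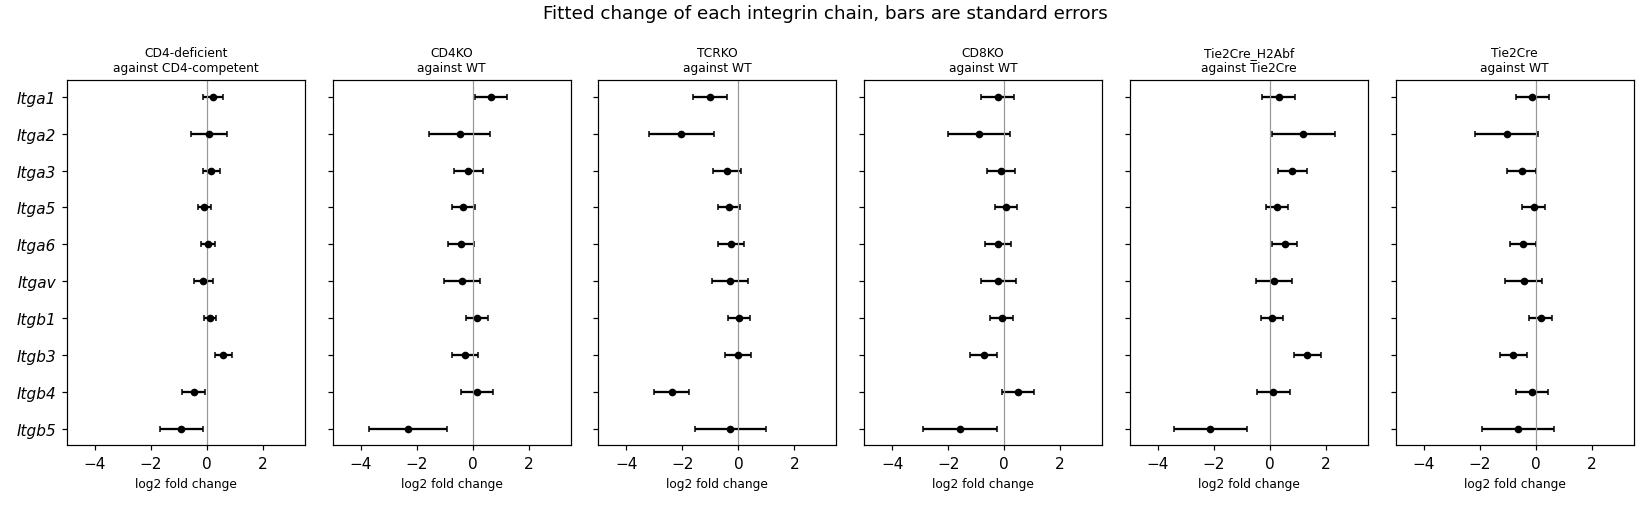
Fitted log2 fold change of each integrin chain in 6 comparisons, with the group named first over the group named second, so that points right of 0 are higher in the first group. Bars are standard errors from edgeR; the point farthest from 0 in units of its error is Itgb4 in TCRKO against WT (-2.39 ± 0.63).

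Hosts labelled TCRKO were compared with WT. The beta chain of the laminin receptor alpha6 beta4, Itgb4, stood at 16.6, 13.2 and 2.96 CPM in TCRKO, against 48.5, 55.9, 14.8 and 110 CPM in WT. The 14.8 CPM belong to WT_9771, and through it alone the groups overlapped. The log2 fold change was -2.39 ± 0.63 (SE), with an edgeR unadjusted p of 0.000836 and an adjusted p of 0.268, so Itgb4 did not pass. DESeq2 did call it, with a change of -2.45 ± 0.55 and an adjusted p of 0.00255. Without WT_9771 the edgeR change was -2.70 ± 0.58 (adjusted p = 0.0831), and without WT_9771 and Tie2Cre_9501 it was -2.63 ± 0.55 (edgeR adjusted p = 0.0539).

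No chain was called by edgeR in TCRKO against WT (0 of 10), where 4 of all genes were (0.0269%). At an unadjusted p under 0.05 the count was 1 of 10 chains, against 8.65% of genes, and DESeq2 called 1 chain and 1.16% of genes. The groups overlapped for all 10 chains, and 7.67% of genes did not overlap. Itgb4 held 1.68% to 8.79% of the beta chain TPM in TCRKO, against 11.7% to 47.2% in WT, so its share of beta chain RNA was also low. Its alpha partner Itga6 stood at 96.1, 89.3 and 64.1 CPM in TCRKO, against 120, 95.4, 33.7 and 150 CPM in WT, a change of -0.27 ± 0.45 (edgeR adjusted p = 0.897). The summed endothelial markers were 2335 to 3433 CPM in TCRKO (median 3284), against 2167 to 4798 CPM in WT (median 4502). The median change of these 10 markers was -0.34, against -0.20 over all genes. The sort marker Pecam1 stood at 535 to 826 CPM in TCRKO, against 435 to 1207 CPM in WT. Tip cell markers summed to 1124 to 1316 CPM in TCRKO, against 218 to 776 CPM in WT. Apln held much of this sum, at 535 to 626 CPM in TCRKO, against 66.5 to 288 CPM in WT. Apln, Cxcr4, Pgf and Igfbp3 lay above every WT library, and Angpt2, Esm1 and Dll4 overlapped with WT. Of the 7 tip cell markers, 2 (Apln and Pgf) had an unadjusted edgeR p under 0.05, against 8.65% of genes, and none was called. Fibroblast markers summed to 29.9 to 37.1 CPM in TCRKO, against 0.425 to 21.3 CPM in WT. Of the 7 tested only the collagen VI gene Col6a2 was called, at 17.5 ± 4.69 CPM in TCRKO and 0.253 ± 0.389 CPM in WT (edgeR adjusted p = 0.0339). This was not particular to TCRKO. Fibroblast sums were 15.35 to 53.3 CPM in CD4KO, 24.2 to 45.15 CPM in CD8KO, 17.9 to 69.9 CPM in Tie2Cre and 11 to 21.5 CPM in Tie2Cre_H2Abf. Col6a2 averaged 4.59 ± 2.23 CPM in CD4KO, 3.39 ± 1.13 CPM in CD8KO and 1.32 ± 1.11 CPM in Tie2Cre, not called against WT. Epithelial and tumour markers summed to 5.42 to 18.2 CPM in TCRKO, against 0.212 to 11.5 CPM in WT, with Epcam at 0 in all 7 libraries. The part of these markers in the Itgb4 values was not tested.

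The collagen receptor chains were next in size. Itga1 stood at 27.5, 17.3 and 9.55 CPM in TCRKO, against 46.5, 40.1, 4.92 and 52.4 CPM in WT, a change of -1.003 ± 0.60 (edgeR adjusted p = 0.622). Itga2 stood at 4.93, 0.950 and 6.82 CPM in TCRKO, against 10.8, 28.9, 0 and 28.01 CPM in WT, a change of -2.04 ± 1.18 (edgeR adjusted p = 0.611). For both, WT_9771 was the lowest of the 7 libraries and all other WT libraries lay above TCRKO. Over the 10 chains the median change was -0.32, against -0.20 over all genes.

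Loss of the class II gene under Tie2Cre was compared with Tie2Cre alone, 4 libraries against 3. No chain was called (edgeR, 0 of 10; DESeq2, 0 of 10), against 0.0202% of all genes by edgeR and 0.356% by DESeq2. At an unadjusted p under 0.05 the count was 1 of 10 chains, against 8.54% of genes. The groups did not overlap for 2 chains, Itgb3 and Itga3, and 9.04% of all genes tested did not overlap either. Itgb3 stood at 268, 194, 125 and 308 CPM in Tie2Cre_H2Abf, against 87.3, 70.4 and 108 CPM in Tie2Cre. All 4 values were higher, with a log2 fold change of 1.34 ± 0.49 (SE), an edgeR unadjusted p of 0.0110 and an adjusted p of 0.576. Itga3, a laminin receptor chain, stood at 182, 116, 119 and 229 CPM in Tie2Cre_H2Abf, against 55.2, 110 and 111 CPM in Tie2Cre, a change of 0.81 ± 0.51 (edgeR adjusted p = 0.663). Without WT_9771 and Tie2Cre_9501 the Itgb3 change was 1.29 ± 0.44 (edgeR adjusted p = 0.867).

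Itgb5 had a change below 0, at 0.177, 3.90, 0.534 and 0 CPM in Tie2Cre_H2Abf, against 7.56, 6.34 and 1.51 CPM in Tie2Cre. The change was -2.13 ± 1.30 (edgeR adjusted p = 0.645), and 3 of 4 Tie2Cre_H2Abf libraries lay below every Tie2Cre library. Of the 10 chains 9 had a change above 0, with a median of 0.29, against -0.24 over all genes, but with RLE scaling Itgb1 (-0.11) and Itgb4 (-0.0083) lay below 0. Summed endothelial markers were 3994 to 6007 CPM in Tie2Cre_H2Abf, against 2603 to 5123 CPM in Tie2Cre. Tip cell markers summed to 1215 to 1626 CPM in Tie2Cre_H2Abf, against 206 to 691 CPM in Tie2Cre. Of these 7 markers, 5 had a higher level and an unadjusted edgeR p under 0.05, against 8.54% of all genes, and none was called. Flt4, a VEGF receptor on the lymphatic marker list, averaged 155 ± 24.0 CPM in Tie2Cre_H2Abf and 61.0 ± 21.5 CPM in Tie2Cre (edgeR adjusted p = 0.6003), while Prox1, the lymphatic transcription factor, averaged 1.62 ± 1.34 CPM in Tie2Cre_H2Abf and 4.199 ± 3.89 CPM in Tie2Cre (edgeR adjusted p = 0.782). Platelets also carry beta3, and platelet markers summed to 0.177 to 5.87 CPM in Tie2Cre_H2Abf, against 4.02 to 20.03 CPM in Tie2Cre. Their part in the Itgb3 and Itga3 values was not tested.

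CD4KO was compared with WT. No chain was called by edgeR or DESeq2 (0 of 10 each), against 0% and 0.598% of genes, and 0 of 10 had an unadjusted edgeR p under 0.05, against 8.58% of genes. Itgb5 had the smallest p, at 2.62, 1.66 and 0.518 CPM in CD4KO, against 21.2, 2.12, 0 and 7.38 CPM in WT, a change of -2.31 ± 1.38 (edgeR adjusted p = 0.642). Itga1 stood at 73.1, 56.3 and 41.9 CPM in CD4KO, against 46.5, 40.1, 4.92 and 52.4 CPM in WT, and 2 of 3 CD4KO libraries exceeded every WT library. Its change was 0.65 ± 0.58 (edgeR adjusted p = 0.795). The groups overlapped for all 10 chains, and 3.92% of genes did not overlap. Unlike in TCRKO, tip cell markers summed to 398 to 590 CPM in CD4KO, inside the range of WT (218 to 776 CPM). Their median change was -0.16, against -0.08 over all genes.

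In CD8KO against WT, edgeR and DESeq2 called 0 of 10 chains, against 0% and 0.551% of genes, and 0 of 10 had an unadjusted edgeR p under 0.05, against 10.5% of genes. The libraries labelled CD8KO held 121, 62.5 and 95.4 CPM of Itgb3, against 255, 224, 40.2 and 94.8 CPM in WT, a change of -0.73 ± 0.48 (edgeR adjusted p = 0.615). They held 103, 94.7 and 47.2 CPM of Itgb4, inside the range of WT (14.8 to 110 CPM), a change of 0.50 ± 0.57 (edgeR adjusted p = 0.828). The groups overlapped for all 10 chains, and 5.16% of genes did not overlap. In these competent libraries tip cell markers summed to 619 to 1091 CPM, against 218 to 776 CPM in WT. Apln averaged 352 ± 105 CPM in CD8KO and 124 ± 109 CPM in WT (edgeR adjusted p = 0.465). It alone of the 7 tip cell markers had an unadjusted edgeR p under 0.05, against 10.5% of genes.

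In Tie2Cre against WT, edgeR and DESeq2 again called 0 of 10 chains, against 0% and 0.538% of genes, with 0 of 10 at an unadjusted edgeR p under 0.05, against 6.85% of genes. The changes of 9 chains lay below 0, with a median of -0.44 over the 10, against 0.02 over all genes. Itgb3 was -0.80 ± 0.48 (edgeR adjusted p = 0.793). The groups overlapped for all 10 chains, and 4.21% of genes did not overlap. The 2 backgrounds also hold different ranges of library numbers, so transgene and number range cannot be told apart.

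The change in Tie2Cre_H2Abf over Tie2Cre was then set against that in TCRKO over WT. No chain differed by edgeR or DESeq2 (0 of 10 each), against 0% and 0.43% of genes, with 1 of 10 at an unadjusted edgeR p under 0.05, against 6.8% of genes. That one was Itgb4, with a difference of 2.52 ± 0.85 on the log2 scale (edgeR adjusted p = 0.578). Across all 6 backgrounds edgeR called 0 of 10 chains, against 0.0605% of genes, with 1 of 10 at an unadjusted p under 0.05, against 9.34% of genes. Itgb4 again had the smallest p (edgeR adjusted p = 0.465). DESeq2 called Itgb4 in this test (adjusted p = 0.0283) and 1.75% of genes, and edgeR with no filter on low counts also called it (adjusted p = 0.0459), with 672 of 33340 genes called there (2.02%).

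Ratios between chains within a library use no scaling factor between libraries, apart from the pseudocount, which weighs most at low levels. For each, log2 TPM ratios (pseudocount 0.1 TPM) were compared between 10 deficient and 10 competent libraries by a 2-sided permutation test, with p adjusted over the 3 ratios. Here too, libraries of different backgrounds and number ranges were taken as replicates on each side. The ratio of the fibronectin receptor chain Itga5 to the laminin receptor chain Itga6 averaged 0.75 ± 0.55 in deficient and 0.95 ± 0.49 in competent libraries (SD), a difference of -0.20 (permutation p = 0.395, adjusted p = 0.395). The ratio of the 2 partners of alpha v, Itgb3 to Itgb5, averaged 5.16 ± 2.16 in deficient and 3.77 ± 1.89 in competent libraries, a difference of 1.39 (permutation p = 0.143, adjusted p = 0.395). The ratio of Itgav to Itgb1 averaged -1.19 ± 0.45 in deficient and -1.56 ± 0.91 in competent libraries, a difference of 0.37 (permutation p = 0.279, adjusted p = 0.395). This last difference was 0.16 without Tie2Cre_9501 and 0.10 without both Tie2Cre_9501 and WT_9771. That of Itga5 to Itga6 ran from -0.33, without WT_9772, to -0.10, without TCRKO_9765, and was -0.13 without either CD4KO_9768 or CD4KO_9769. None of the 3 differences passed the test.

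The ratio of Itgb3 to Itgb5 was also compared within each number range. Deficient and competent libraries differed by 0.29 within the 97xx libraries (6 against 7, exact permutation p = 0.744). Within the 95xx libraries they differed by 3.44 (4 against 3, exact permutation p = 0.171). At that size the test cannot reach 0.05. Whether the ranges differ was not tested, and the 95xx range holds only Tie2Cre_H2Abf and Tie2Cre, so range and background cannot be told apart. Over all libraries, with a pseudocount of 1 TPM the difference was 1.16 (permutation p = 0.0476, adjusted p = 0.143), and with 0.01 TPM it was 1.48 (permutation p = 0.252, adjusted p = 0.393). In the 5 deficient and 5 competent libraries where both genes exceeded 1 TPM it was 1.37 (exact permutation p = 0.0317, adjusted p = 0.0952). A level above 1 TPM did not ensure many counts, since effective lengths of Itgb5 ran from 189 to 2903 bases. Tie2Cre_H2Abf_9583 was kept with 3 counts of Itgb5 (3.8 TPM, deposited interval 0.0296 to 13.9 TPM), and Tie2Cre_9501 with 20 counts (17.66 TPM). CD4KO_9769 was left out with 13 counts (0.84 TPM). The part of these libraries in the difference was not tested.

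**Figure D4:**
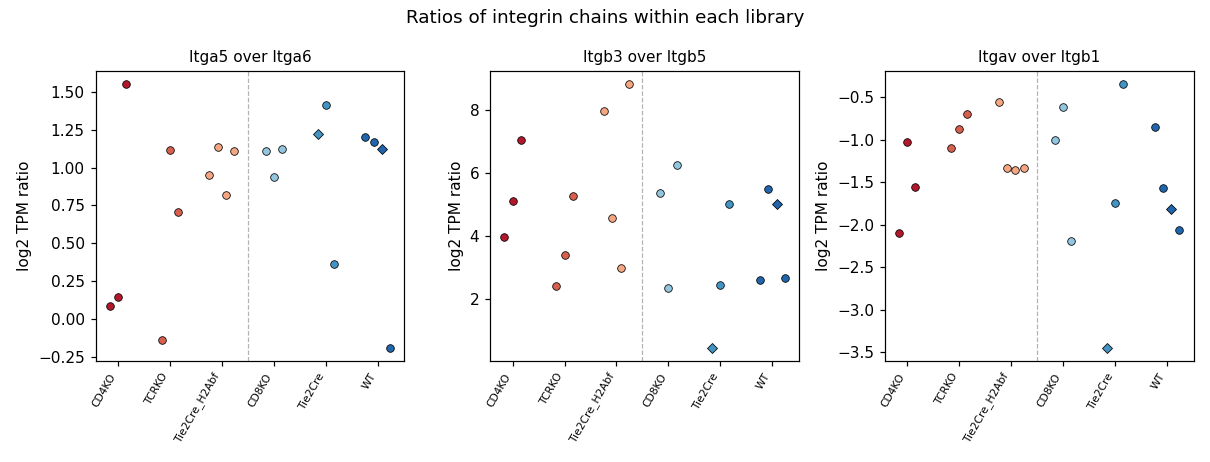
Log2 TPM ratios of 3 pairs of integrin chains in each library, by background, with CD4-deficient backgrounds left of the dashed line. Points are libraries and diamonds are WT_9771 and Tie2Cre_9501; the deficient and competent libraries overlap in all 3 ratios.

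Genes whose levels followed a chain most closely are described by Spearman's rho of log2 CPM over the 20 libraries, among 4201 genes averaging 10 CPM or more. The libraries share depth and makeup, so no p is given. Itgb4 followed Abca1, a cholesterol exporter (rho 0.872), Pecam1, the sort marker (0.857), and Dock9 (0.841). Itga6 followed another integrin alpha chain, Itga9 (0.850), which pairs with beta1, and Itgb3 followed Notch4, an endothelial Notch receptor (0.830). Itga2 followed Slc44a2 (0.845), Stab1 (0.833) and Kdr, the main VEGF receptor (0.818). Itga3 followed Cdc42bpb (0.856) and the basement membrane collagen gene Col4a1 (0.850). Itga5 followed Tspan9 (0.880) and Galnt10 (0.878). For Itgb1 the closest gene reached only 0.713 (Pkig), and for Itgav 0.684 (Apex2). Leaving out WT_9771 and Tie2Cre_9501 gave 0.841 for Itgb4 with Pecam1 and 0.806 for Itga6 with Itga9.

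Of 24 genes for matrix ligands 21 were tested, and edgeR called 0 in each of the 8 comparisons. The lowest p fell in Tie2Cre_H2Abf against Tie2Cre. There, of the 21 ligand genes, 6 with a higher and 3 with a lower level had an unadjusted edgeR p under 0.05, against 8.54% of all genes. The list was chosen with earlier results of these data known, so this count does not test the list. Fbln5, encoding fibulin-5, an integrin ligand of elastic fibres, averaged 19.5 ± 7.20 CPM in Tie2Cre_H2Abf (n = 4) and 114 ± 40.1 CPM in Tie2Cre (n = 3, SD), a change of -2.55 ± 0.50 (edgeR adjusted p = 0.0977). Fn1, encoding fibronectin, averaged 1038 ± 712 CPM in Tie2Cre_H2Abf and 196 ± 115 CPM in Tie2Cre, a change of 2.41 ± 0.53 (edgeR adjusted p = 0.217). Lama4, a laminin chain of vascular basement membrane, had a change of 1.14 ± 0.44 (edgeR adjusted p = 0.576). In Tie2Cre against WT, the WT means were 47.2 ± 31.9 CPM for Fbln5 and 459 ± 209 CPM for Fn1, with changes of 1.27 ± 0.49 for Fbln5 (edgeR adjusted p = 0.664) and -1.23 ± 0.50 for Fn1 (edgeR adjusted p = 0.693), opposite in sign to those in Tie2Cre_H2Abf against Tie2Cre. These comparisons share the Tie2Cre libraries. In TCRKO against WT, Fbln5 averaged 17.1 ± 3.73 CPM in TCRKO and 47.2 ± 31.9 CPM in WT, a change of -1.46 ± 0.51 (edgeR adjusted p = 0.506). Over CD4 status it averaged 30.3 ± 22.2 CPM in deficient and 72.5 ± 40.2 CPM in competent libraries, a change of -1.26 ± 0.37 (edgeR adjusted p = 0.375). In TCRKO against WT, the laminin chain Lama5 averaged 136 ± 21.1 CPM in TCRKO and 295 ± 163 CPM in WT, a change of -1.12 ± 0.43 (edgeR adjusted p = 0.536). Fn1 averaged 240 ± 140 CPM in CD4KO, a change from WT of -0.94 ± 0.50 (edgeR adjusted p = 0.5965). The change in Tie2Cre_H2Abf over Tie2Cre exceeded that in TCRKO over WT by 3.04 ± 0.72 for Fn1 (edgeR adjusted p = 0.2185). This difference was 1.51 ± 0.61 for Lama4 (edgeR adjusted p = 0.622) and 1.565 ± 0.60 for Lama5 (edgeR adjusted p = 0.599).

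Among cytoplasmic adaptors all 23 were tested and edgeR called 0 in each comparison. Src, a tyrosine kinase at adhesions, had the lowest p of the list in TCRKO against WT, at 3.96 ± 2.499 CPM in TCRKO and 0 in all 4 WT libraries (edgeR adjusted p = 0.373). It averaged 2.10 ± 2.75 CPM in CD4KO, against the same 0 in WT (edgeR adjusted p = 0.573), and no fold is given. Tns1, encoding tensin-1, which links beta chains to actin, averaged 318 ± 16.8 CPM in Tie2Cre_H2Abf and 171 ± 37.3 CPM in Tie2Cre, a change of 0.89 ± 0.37 (edgeR adjusted p = 0.576). EdgeR also called 0 of 10 genes for integrin inhibitors and traffic, 0 of 10 membrane partners and 0 of 11 tested other integrin genes in each comparison. Among the membrane partners, Mcam averaged 569 ± 139 CPM in Tie2Cre_H2Abf and 287 ± 159 CPM in Tie2Cre, a change of 0.99 ± 0.42 (edgeR adjusted p = 0.576). Among the other integrins, Itgal, the alpha chain of the leukocyte integrin LFA-1, averaged 6.34 ± 2.54 CPM in Tie2Cre and 24.9 ± 14.9 CPM in WT, a change of -1.95 ± 0.78 (edgeR adjusted p = 0.677). Itga9 averaged 35.4 ± 3.75 CPM in Tie2Cre_H2Abf and 13.6 ± 5.86 CPM in Tie2Cre, a change of 1.37 ± 0.70 (edgeR adjusted p = 0.579), and 34.5 ± 30.2 CPM in WT.

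Overlapping genes could share reads with a chain, also those on the opposite strand, since the library kit does not mark strand. Pelo lies within Itga1 on the same strand and reached 10.3 CPM. Gm13684 lies opposite Itgav and reached 9.78 CPM, and B230344G16Rik lies opposite Itgb4 and reached 3.15 CPM. Itgav, with 2.65 to 30.4 CPM of its own, is the chain for which such sharing could be largest relative to its level.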

How the data were processed

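Per the labels' protocols, CD31-positive cells were enriched with microbeads and sorted, cDNA was made by MATQ, a multiple-annealing method, and sequenced as Nextera XT libraries. The submitters' processing notes name GRCm38 and the tools bcl2fastq 2.17, STAR, RSEM 1.2.28 and DESeq2, without their order. The authors deposited, per library, RSEM's expected count (an estimated count, not normalized), TPM, the effective length and bounds of a TPM interval per gene. Expected counts were rounded to whole numbers; 4.45% had not been whole. Symbols and positions came from a GRCm38 annotation for 46488 of 46983 IDs. Promoter windows came from RefSeq on GRCm38.p6.

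The main test was edgeR 4.0.16 (R 4.3.3), quasi-likelihood, robust, with TMM factors and filterByExpr by background. The Benjamini-Hochberg adjustment ran over all 14875 genes, with a threshold of 0.05. The fit of CD4 status had 2 groups, and all other fits had 6. Standard errors came from the F statistic. Log2 CPM used a prior count of 2. Ratio tests drew 100000 permutations with scipy 1.17.1, or all where called exact.

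The members and gene lists were chosen with earlier results of these data known. Named are all 10 chains in every library and, per list and comparison, up to 3 genes averaging 1 CPM or more with the lowest p, of which the text gives part. For chains averaging 10 CPM or more they are also the 3 genes with the highest Spearman's rho. Not every gene this rule names is reported here. Alternatives were DESeq2 1.42.0, RLE factors, other filters, effective-length offsets, subsets of libraries and leaving out each library. Leaving out WT_9771 and Tie2Cre_9501, and restricting the genes, were chosen after seeing the data. The fits were tested on simulated data, with planted changes larger than nearly all those fitted for the chains. That test does not show whether changes of the size seen here could be called. The fitted coefficient of variation common to all genes was 0.995 with 6 groups and 1.08 with 2. Replicates differed by far more than sampling noise (chi-square per degree of freedom 15.9 to 544), so none was counted as a duplicate.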

Additional observations from a re-analysis of the deposited data

Results flagged for a closer look

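Within groups of 4 to 10 libraries, 52 sets of values were tested for a library far from the others, and chance flags about 1 in 20 of them. A total of 6 were found. Itga1 stood at 4.92 CPM in WT_9771, against 40.1 to 52.4 CPM in the other WT libraries and at least 18.4 CPM in the other competent ones, and was far from both sets. WT_9771 is one of the libraries rich in Gm10800. Itga1 stood at 14.4 CPM in Tie2Cre_H2Abf_9582, against 44.1 to 55.2 CPM in the other 3 Tie2Cre_H2Abf libraries. Itga6 stood at 28.2 CPM in CD4KO_9768, against 64.1 to 119 CPM in the other 9 deficient libraries.

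The log2 TPM ratio of Itga5 over Itga6 was -0.19 in WT_9772, against 1.12 to 1.202 in the other WT libraries. The log2 TPM ratio of Itgav over Itgb1 was -0.56 in Tie2Cre_H2Abf_9576, against -1.35 to -1.33 in the other 3 Tie2Cre_H2Abf libraries. The cause of these values was not tested.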

How the results depend on the processing

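No paired analysis was possible because each library number is used once. Of 80 member results under 31 alternatives, 3 became calls, all Itgb4: in TCRKO against WT by DESeq2, and over the 6 backgrounds by DESeq2 and with no low-count filter. No chain was called in any fit that left out 1 library. In all, 132 alternative values changed sign, each from a change that had not been called. RLE factors moved the median of all genes by up to -0.19 (CD8KO against WT and Tie2Cre_H2Abf against Tie2Cre). The depth left Itgb5 and Itga2 at few counts, so their changes are the least certain.

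Counts of called genes moved as follows. For CD4 status, 0 became 4 with the 6-group model, 4 with DESeq2 and 1 in the 95xx libraries. For CD4KO against WT, 0 became 89 with DESeq2 and 10 with no filter. For TCRKO against WT, 4 became 15 at 5 CPM in 10 libraries, 172 with DESeq2, 2 with effective-length offsets, 31 with no filter, 0 with only the groups compared, 9 with RLE and 15 without the 2 libraries rich in Gm10800 (WT_9771 and Tie2Cre_9501). For CD8KO against WT, 0 became 82 with DESeq2 and 12 with no filter. For Tie2Cre_H2Abf against Tie2Cre, 3 became 10 at 5 CPM in 10 libraries, 53 with DESeq2, 9 with no filter, 1 with only the groups compared and 5 with RLE. For Tie2Cre against WT, 0 became 80 with DESeq2. For the difference of effects, 0 became 6 at 5 CPM in 10 libraries, 64 with DESeq2, 18 with no filter and 4 with RLE. Over the 6 backgrounds, 9 became 27 at 5 CPM in 10 libraries, 261 with DESeq2, 672 with no filter and 21 without the 2 libraries rich in Gm10800. Leaving out 1 library gave 0 to 1 for CD4 status, CD4KO, CD8KO and Tie2Cre against WT, 0 to 18 for TCRKO, 1 to 3 for Tie2Cre_H2Abf against Tie2Cre, 0 to 4 for the difference of effects and 1 to 18 over the 6 backgrounds. For TCRKO against WT these were 0 without WT_9748 or any of the 3 TCRKO libraries, 2 without WT_9749, 10 without WT_9771 and 18 without WT_9772. Over the 6 backgrounds the lowest was without Tie2Cre_H2Abf_9576 and the highest without WT_9771. The cause was not tested.

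Sign changes under one alternative, as log2 changes, were as follows. For CD4 status, Itga2 was -0.14 (6-group model), -0.72 (97xx libraries) and -0.24 (without the 2 libraries rich in Gm10800), and Itga3 was -0.23 (97xx) and -0.041 (without the 2). Itga6 was -0.046 (DESeq2), -0.043 (RLE), -0.046 (5 CPM in 10 libraries), -0.25 (97xx) and -0.13 (without the 2). In the 95xx libraries Itga5 was 0.21, Itgav 0.12 and Itgb4 0.10, and the ratio of Itga5 over Itga6 was 0.0034; Itgav was 0.24 with effective-length offsets. For CD4KO against WT, effective-length offsets gave 0.13 for Itgav and -0.085 for Itgb4, which was -0.16 without the 2. For CD8KO against WT, Itga5 was -0.086 (DESeq2), -0.083 (RLE), -0.040 (5 CPM in 10 libraries) and -0.12 (without the 2). There, no filter gave 0.032 for Itga3, 0.020 for Itgav and 0.12 for Itgb1, and offsets gave 0.036 for Itgav. For TCRKO against WT, Itgb1 was -0.081 (DESeq2), -0.10 (RLE), -0.087 (5 CPM in 10 libraries) and -0.20 (offsets), and Itgav was 0.51 (offsets). There, Itgb3 was 0.029 (5 CPM in 10 libraries), 0.044 (offsets), 0.12 (no filter), 0.046 (only the groups compared) and 0.019 (protein-coding genes only). For Tie2Cre against WT, Itga5 was 0.030 (5 CPM in 10 libraries), Itgav 0.54 (offsets) and 0.10 (without the 2), and Itgb5 0.68 (offsets). For Tie2Cre_H2Abf against Tie2Cre, Itgb1 was -0.11 (DESeq2), -0.11 (RLE), -0.13 (5 CPM in 10 libraries), -0.038 (offsets) and -0.13 (without the 2). There, Itgb4 was -0.0085 (DESeq2), -0.0083 (RLE), -0.034 (5 CPM in 10 libraries), -0.029 (offsets) and -0.11 (without the 2), and Itgav was -0.36 (without the 2). For the difference of effects, Itgb1 was -0.027 (DESeq2), -0.00043 (RLE), -0.048 (5 CPM in 10 libraries), -0.076 (no filter), -0.0042 (protein-coding genes only) and -0.24 (without the 2), and Itgav was -0.47 (offsets) and -0.14 (without the 2).

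Where leaving out 1 library turned the sign of a chain, the log2 changes ran as follows. For CD8KO against WT they ran from -0.58 to 0.11 for Itga1, from -0.38 to 0.15 for Itga3, from -0.17 to 0.28 for Itga5, from -0.50 to 0.070 for Itga6, from -0.37 to 0.13 for Itgav and from -0.17 to 0.22 for Itgb1. For Tie2Cre against WT they ran from -0.68 to 0.12 for Itga1, from -0.29 to 0.15 for Itga5, from -1.79 to 0.068 for Itgav, from -0.054 to 0.37 for Itgb1, from -0.88 to 0.40 for Itgb4 and from -0.99 to 0.61 for Itgb5. For CD4 status they ran from -0.16 to 0.30 for Itga2, from -0.19 to 0.0012 for Itga5, from -0.066 to 0.15 for Itga6 and from -0.25 to 0.024 for Itgav. For CD4KO against WT they ran from -1.06 to 0.29 for Itga3, from -0.89 to 0.03 for Itga5, from -0.58 to 0.093 for Itgb3 and from -0.34 to 0.67 for Itgb4. For TCRKO against WT they ran from -0.55 to 0.0076 for Itga6, from -0.48 to 0.031 for Itgav, from -0.17 to 0.21 for Itgb1, from -0.33 to 0.35 for Itgb3 and from -0.67 to 0.95 for Itgb5. For Tie2Cre_H2Abf against Tie2Cre they ran from -0.30 to 1.55 for Itgav, from -0.088 to 0.33 for Itgb1 and from -0.16 to 0.90 for Itgb4. For the difference of effects they ran from -0.020 to 1.83 for Itgav and from -0.14 to 0.29 for Itgb1.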
